A study of Mus musculus with 18 samples.

Results

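The ends of chromosomes 14 and 17 changed in sequencing coverage in opposite directions over the time course of mouse embryonic stem cells (ESCs), in control and in Dnmt1 KO cells alike. The regions described here are all 100 kb tiles of these chromosomes, 2205 of the 26398 tiles of the genome, with 1252 on chromosome 14 and 953 on chromosome 17. Of these, 2089 were kept, since 60 tiles were mostly unsequenced and another 56 averaged under 50 calls per library. Both chromosomes were selected on the coverage of their second sides (each chromosome split at its midpoint), which differed between day 1 and day 11, so the change from day 1 to day 11 is given as a description with no test. Tests were run only on the 10 libraries of days 3, 6 and 9, which that choice did not use.

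Whole-genome bisulfite sequencing was carried out on 18 libraries of ESCs sampled at days 1, 3, 6, 9 and 11, of which 9 were labelled Wildtype (here control) and 9 Dnmt1 KO. Each genotype and day had 2 libraries, except day 6 with 1. By the labels every library was of strain E14, whereas the methods described Dnmt1 loxP/loxP ESCs of strain C57BL/6 in which tamoxifen induced Cre and thereby deleted Dnmt1. Whether control cells were uninduced floxed cells is not given in the sources used here, so a difference between genotypes cannot be told apart from a difference between lines or from the tamoxifen treatment. Nothing states whether libraries came from separate cultures, or whether later days were grown on from earlier ones, so p-values measure only the spread between these libraries, which may be technical.

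DNMT1 is the maintenance DNA methyltransferase, which copies the methylation of CpG sites onto the new strand after replication, so that its loss leads to passive loss of methylation as cells divide. Bisulfite turns unmethylated cytosine into uracil, and each read over a CpG then yields 1 call, methylated or unmethylated. The number of calls in a segment relative to the rest of the genome follows the amount of that DNA in the sample, and it also depends on base composition and on the CpGs present. In a bulk sample, a change in the share of cells that carry more or less of a segment and a change in the amount per cell cannot be told apart, and chromosome structure was not examined here.

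Libraries held 7190722 to 11158414 calls, or 1.2 to 1.25 calls per covered cytosine. Over the autosomes other than 14 and 17, 70.8% to 78.8% of calls were methylated in control libraries, 69.5% and 69.8% in Dnmt1 KO at day 1 and 23.4% to 33.8% in Dnmt1 KO from day 3, which matches the genotype labels in direction. Coverage depended on base composition to a different degree in each library. The ratio of coverage in the 10% of tiles lowest in GC to that in the 10% highest in GC was 0.515 in control day 1 replicate 2 and 0.881 to 1.17 in the other 17 libraries, so coverage was also corrected with the other-autosome tiles of like GC content, and corrected values are given unless stated otherwise.

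A single change point was placed along each chromosome by least squares. On chromosome 14 it fell at 93.8 Mb (build NCBIM37), with coverage beyond it higher at day 11 on average, by a step of 0.22 on the log2 scale. On chromosome 17 it fell at 73.8 Mb, with coverage beyond it lower on average, by a step of -0.31. The distal segment of chromosome 14, chr14:93800001-125194864, thus held 314 tiles or 25.1% of the chromosome, and that of chromosome 17, chr17:73800001-95272651, held 215 tiles or 22.5%. Neither change point lay at the middle of its chromosome.

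To show the DNA at the change points, stretches of 150 bases rich in CpGs outside exons are printed for the 100 kb tiles just before and just after each. They are the richest that passed a filter. Stretches with few distinct short words of bases were passed over, as were those with sampled words of 20 bases that recur on chromosomes 14 or 17. Other chromosomes were not searched. The names before and after hold for the placement with 100 kb tiles only, since with tiles of 10, 20 or 50 kb both stretches of each chromosome lay beyond the change point. Capitals mark the CpGs, the only positions counted as calls, and all are given on the + strand.
chr14:93799370-93799519, before: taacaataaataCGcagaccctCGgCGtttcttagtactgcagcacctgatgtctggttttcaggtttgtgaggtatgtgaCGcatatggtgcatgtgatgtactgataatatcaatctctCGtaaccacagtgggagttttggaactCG
chr14:93802198-93802347, after: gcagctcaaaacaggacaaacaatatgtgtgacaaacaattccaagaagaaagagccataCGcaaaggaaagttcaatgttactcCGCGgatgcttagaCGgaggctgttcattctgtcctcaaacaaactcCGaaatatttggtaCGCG
chr17:73766335-73766484, before: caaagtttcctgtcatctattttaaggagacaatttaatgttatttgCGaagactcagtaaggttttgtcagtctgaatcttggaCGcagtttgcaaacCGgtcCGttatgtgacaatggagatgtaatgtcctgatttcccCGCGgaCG
chr17:73837343-73837492, after: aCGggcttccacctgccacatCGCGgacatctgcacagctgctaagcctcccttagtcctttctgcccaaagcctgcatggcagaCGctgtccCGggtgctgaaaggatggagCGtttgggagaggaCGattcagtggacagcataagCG
The chromosome 14 stretches lie in an intron of Pcdh9, a protocadherin of neurons, which spans chr14:93414731-94287951 on the - strand and so holds the change point. Those of chromosome 17 lie between Capn13 (a calpain protease), which ends at 73748636, and Galnt14 (an enzyme that starts mucin-type sugar chains), which begins at 73842568. The sequences differed widely in methylation: in control libraries of days 6 to 11, 29 of 29 calls (100%) were methylated in the stretch after the chromosome 14 change point, and 0% of 3 calls in the stretch after the chromosome 17 change point, which has 8 CpGs and 58.7% GC. In Dnmt1 KO libraries of days 6 to 11, 0% of 9 calls were methylated before the chromosome 14 change point, 62.5% of 8 after it, 24.1% of 29 before the chromosome 17 change point and 25% of 8 after it. With so few calls, these are examples of the DNA only.

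The place of the shift was sharper on chromosome 17. There it stayed at 73.8 Mb in each genotype by itself and without each library of days 1 and 11 in turn, and it fell between 73.5 and 73.76 Mb with tiles of 10, 20, 50 or 500 kb. On chromosome 14 it lay at 93.6 Mb in control and 94.0 Mb in Dnmt1 KO, between 93.6 and 94.0 Mb without each library in turn, and between 93.73 and 94.0 Mb with the other tile sizes. Days 3 and 9, which did not choose the regions, placed it at 94.0 Mb on chromosome 14 and at 73.6 Mb on chromosome 17 by themselves. Without the GC correction the chromosome 14 change point moved to 88.3 Mb (81.3 Mb in control and 93.8 Mb in Dnmt1 KO), while that of chromosome 17 stayed at 73.8 Mb.

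**Figure D1:**
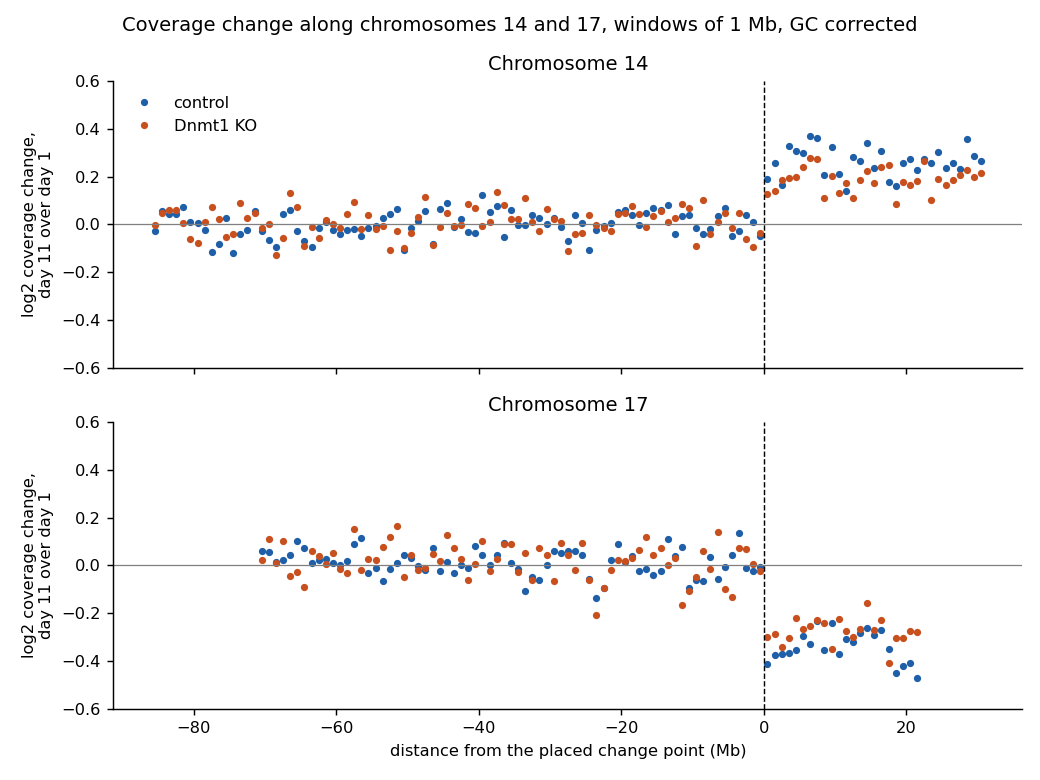
Log2 coverage change from day 1 to day 11 in windows of 1 Mb (points, y axis) against the distance from the placed change point in Mb (x axis, dashed line at 0), in control (blue) and Dnmt1 KO (orange). Points lie around 0 up to the change point and, beyond it, all above 0 on chromosome 14 and all below 0 on chromosome 17.

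The shift was even over the whole windows of 5 Mb in each distal segment. These held 50 tiles each and left out part of the 314 tiles on chromosome 14 and of the 215 on chromosome 17. In the 6 windows of 5 Mb of the chromosome 14 distal segment, the change from day 1 to day 11 was between 0.19 and 0.26 (log2, mean of both genotypes), and in the 17 windows before it between -0.03 and 0.05. In the 4 windows of the chromosome 17 distal segment it was between -0.33 and -0.27, and in the 14 windows before it between -0.06 and 0.04. In Dnmt1 KO by itself those 14 windows lay between -0.08 and 0.07. The ranges of the distal and proximal windows did not overlap on either chromosome. The change points were placed on this same change, however, so that the separation was in part set by the placement and is no test.

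By tile, the changes were also mostly of the same direction. Among the 314 tiles of the chromosome 14 distal segment, 305 (97.1%) were above 0, with a median of 0.24 and a middle range (lowest and highest 10% left out) of 0.09 to 0.36. Among the 215 of the chromosome 17 distal segment 0 were above 0, with a median of -0.31 and a middle range of -0.47 to -0.15. In the proximal segments 53.4% of 857 and 55.2% of 703 tiles were above 0, beside 49.6% of the 21700 tiles of the other autosomes. These counts describe the contrast that chose the regions and are no test of it.

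The step could be seen between neighbouring tiles on chromosome 17. Calls of single tiles, here and below, are not scaled to the depth of the library. In the last tile before the change point, chr17:73700001-73800000, calls were 226 and 233 in control at day 1 and 260 and 222 at day 11, and 261 and 261 against 224 and 219 in Dnmt1 KO. In the first tile after it, chr17:73800001-73900000, which holds part of Galnt14, calls went from 377 and 344 to 246 and 247 in control and from 301 and 329 to 199 and 238 in Dnmt1 KO. Scaled to depth and GC corrected, the log2 change was 0.07 in control and -0.08 in Dnmt1 KO before the change point, and -0.46 and -0.36 after it. The next tile, chr17:73900001-74000000, also in Galnt14, had the lowest change of its side without the GC correction, -0.67, and was at -0.63 with it. Here control calls went from 345 and 401 to 206 and 205 and Dnmt1 KO calls from 395 and 356 to 265 and 206, so that the unscaled calls of day 1 and day 11 libraries did not overlap.

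On chromosome 14 single tiles next to the change point did not show the step. In chr14:93700001-93800000 the change was 0.20 in control and 0.03 in Dnmt1 KO, and in chr14:93800001-93900000 it was 0.36 and 0.12, both inside Pcdh9. The tile with the highest change of its side was the last of the chromosome, chr14:125100001-125194864, at 0.60 (0.68 without the GC correction). Its calls went from 184 and 135 to 293 and 212 in control and from 163 and 213 to 269 and 267 in Dnmt1 KO. No protein-coding gene lies in this tile.

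Single tiles outside the distal segments reached changes of like size, in part with few calls. In the first side of chromosome 14 the highest and lowest changes were in chr14:42900001-43000000 (0.45) and chr14:43200001-43300000 (-0.59), which hold gene models of a repeated family (Gm7995 and Gm3633) and averaged only 59.3 and 61.6 calls. The lowest of the second side without the GC correction, chr14:69700001-69800000 with the heart and gut homeobox gene Nkx2-6, was at -0.56 in control and -0.12 in Dnmt1 KO. On chromosome 17, chr17:22700001-22800000 with vomeronasal receptor genes was at 0.32, chr17:30300001-30400000 with Zfand3 and Btbd9 at -0.24, and chr17:61700001-61800000 with no protein-coding gene at 0.25.

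The time course of the distal segments was graded. In control libraries, chromosome 14 distal coverage relative to the mean of the 4 day 1 libraries of both genotypes was 2.65% and 3.75% higher at day 3, 5.08% at day 6, 11.8% and 12.4% at day 9 and 21.1% and 19.2% at day 11. In Dnmt1 KO it was 5.04% and 3.87% higher at day 3, 9.88% at day 6, 11.07% and 13.4% at day 9 and 13.2% and 15.0% at day 11. All libraries from day 3 on were thus above both day 1 libraries of their genotype. The 4 day 1 libraries themselves lay between -0.60% and 0.73% on chromosome 14 and between -1.77% and 1.34% on chromosome 17.

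On chromosome 17 the distal segment went the other way in the same libraries. Control values against the mean of the same 4 day 1 libraries were -3.83% and -2.46% at day 3, -7.33% at day 6, -12.8% and -11.2% at day 9 and -21.4% and -19.2% at day 11. Dnmt1 KO values were -6.42% and -4.50% at day 3, -11.8% at day 6, -15.0% and -15.6% at day 9 and -15.5% and -18.0% at day 11. Dnmt1 KO libraries were below control, with no overlap, at days 3, 6 and 9, and above control at day 11. On chromosome 14 Dnmt1 KO was above control at days 3 and 6, overlapped with it at day 9 and was below it at day 11.

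In libraries from day 3, the GC-corrected percent gained on chromosome 14 and that lost on chromosome 17 were of like size. Their sum lay between -3.92 and 1.29 percentage points over all 18 libraries, although single changes reached 21.1% and -21.4%, and it was below 0 in all 7 Dnmt1 KO libraries from day 3. Without the GC correction the mean changes to day 11 were less alike in control, at 30.4% and -19.2%. Counting error was far smaller than these changes, since distal segments held 85447 to 128548 calls per library on chromosome 14 and 45430 to 84580 on chromosome 17, which gives a relative counting error of at most 0.342% and 0.469%. Calls of the same read pair are not independent, so these errors cover the counting of calls only.

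**Figure D2:**
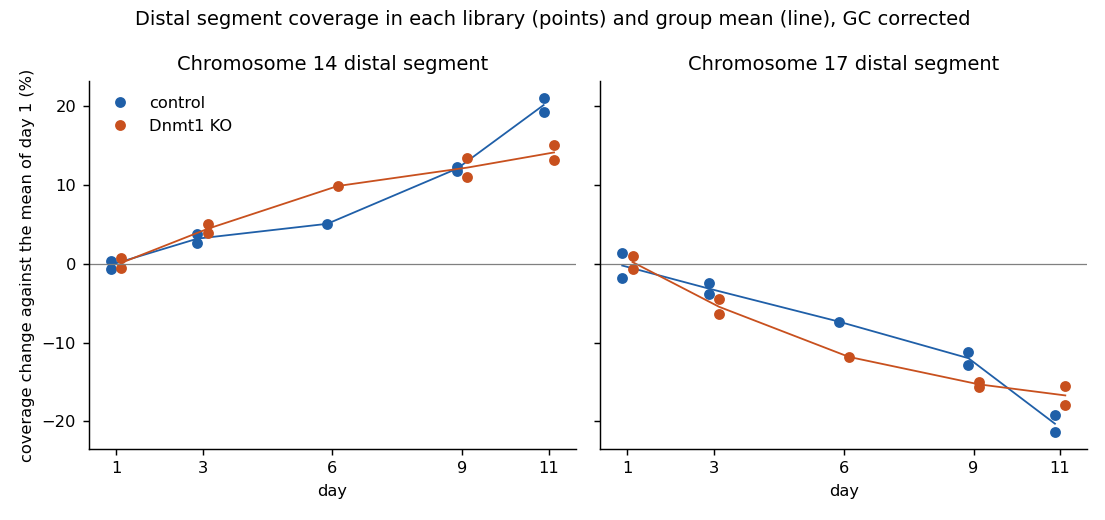
Coverage of each distal segment as percent change against the mean of the 4 day 1 libraries of both genotypes (y axis) by day (x axis), with 1 point per library and lines through the group means, control in blue and Dnmt1 KO in orange. Chromosome 14 libraries lie between 13.2% and 21.1% and chromosome 17 libraries between -21.4% and -15.5% at day 11.

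In the 10 libraries of days 3, 6 and 9, coverage of the chromosome 14 distal segment rose by 0.0186 per day on the log2 scale (0.0199 in control and 0.0172 in Dnmt1 KO). This passed a two-sided exact permutation test of day labels within genotype, with p = 0.00222, the smallest it can give, and adjusted p = 0.00889 over 8 tests of the 2 distal segments (Benjamini-Hochberg). Coverage of the chromosome 17 distal segment fell by 0.0247 per day (-0.0230 in control and -0.0264 in Dnmt1 KO), with the same exact permutation p = 0.00222 and adjusted p = 0.00889. With any 1 library left out, the slopes stayed between 0.0176 and 0.02 and between -0.0256 and -0.0233, with exact permutation p of at most 0.0111. With replicate numbers taken as blocks, exact permutation p was 0.0139 for both slopes before adjustment, the smallest this test can then give. The segments were delimited with days 1 and 11 only.

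The difference between genotypes was smaller than the change with time. Averaged over days 3, 6 and 9, the GC-corrected log2 coverage of the chromosome 17 distal segment, set against its mean over all libraries, was 0.0255 in control and -0.0285 in Dnmt1 KO, a difference of -0.0540 with p = 0.0278, the smallest that the exact permutation test of genotype within day can give, and adjusted p = 0.0444. On chromosome 14 the difference was 0.0278 (exact permutation p = 0.139, adjusted p = 0.159) and did not pass. It rested on single libraries, since it was 0.0328 and passed without Dnmt1 KO day 9 replicate 1 (exact permutation p = 0.0278, adjusted p = 0.037) and was 0.00955 without either day 6 library. The chromosome 17 difference had p = 0.0556 in the exact permutation test without control day 3 replicate 2, without Dnmt1 KO day 3 replicate 1, or without either day 6 library, and so missed the threshold there. With replicate numbers taken as blocks it had exact permutation p = 0.0625, the smallest then possible, and missed it too. Whether the slope on day differed between genotypes was tested with the same libraries, and the difference was -0.0026 per day on chromosome 14 (exact permutation p = 0.5) and -0.0034 on chromosome 17 (p = 0.667), where 0.0556 is the smallest p this test can give.

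Set against other-autosome tiles of like GC content and CpG density, the chromosome 14 distal segment stood at 1.03 times their coverage at day 1 (mean of 4 libraries, 1.02 to 1.04) and at 1.2 at day 11 (1.16 to 1.24). The chromosome 17 distal segment was already lower at day 1, at 0.923 (0.907 to 0.934), and reached 0.750 at day 11 (0.724 to 0.777). In 79 segments of 25 Mb of the other autosomes the same ratio ranged from 0.905 to 1.31 at day 1 and from 0.902 to 1.22 at day 11. The day 11 level of chromosome 17 lay below all 79, and that of chromosome 14 was within their range but above their 95th percentile (1.12). At day 1 the chromosome 14 level was between their 5th and 95th percentiles (0.935 and 1.15), and the chromosome 17 level was within their range but below the 5th.

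Seen by sides, as the regions were chosen, the change from day 1 to day 11 of the second side of chromosome 14 was 0.14 in control and 0.10 in Dnmt1 KO, and that of chromosome 17 was -0.14 and -0.11. The first sides were at 0.003 and 0.015 on chromosome 14 and at 0.02 and 0.03 on chromosome 17. Among the 34 sides of the other autosomes the lowest change (mean of both genotypes) was -0.09, in the second side of chromosome 8, and without chromosome 8 the range was -0.01 to 0.02.

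**Figure D3:**
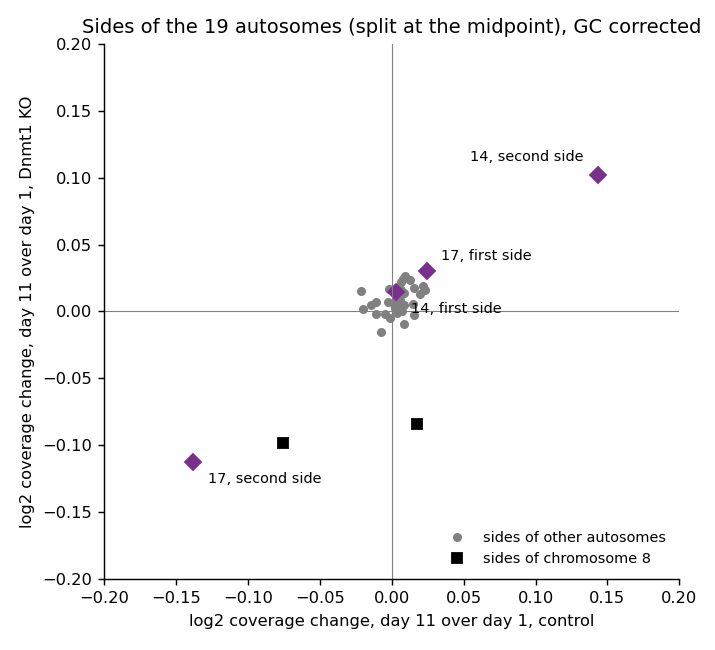
Log2 coverage change from day 1 to day 11 in control (x axis) and in Dnmt1 KO (y axis), GC corrected, for the sides of the 19 autosomes. The second sides of chromosomes 14 (0.14 and 0.10) and 17 (-0.14 and -0.11) lie at opposite corners, chromosome 8 (black) lies low in Dnmt1 KO, and the other sides (grey) lie near 0.

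In days 3 to 9 without the GC correction, the coverage of the second side of chromosome 14 rose by 0.012 per day and that of chromosome 17 fell by 0.0099 per day (exact permutation, adjusted p = 0.0356 each over 16 tests of the 4 sides). The first sides had slopes of -0.0003 (adjusted p = 0.691) and -0.0031 per day (adjusted p = 0.222) in the same exact permutation test. In all, 10 of the 16 tests passed an adjusted p of 0.05, and those of methylation are given further on. The genotype difference in coverage of the second side of chromosome 14, 0.04 with adjusted p = 0.0494, was 0.02 with adjusted p = 0.133 after the GC correction in the exact permutation test, and that of the first side of chromosome 17, -0.02 with adjusted p = 0.0494, was 0.0005 (p = 0.861, adjusted likewise). Over days 3 to 9 the AT-rich to GC-rich ratio of the libraries was 0.902 to 0.980 in control and 0.956 to 1.17 in Dnmt1 KO. Its relation to these differences was not tested.

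The shift was next looked for tile by tile in libraries of days 3 and 9, with an edgeR quasi-likelihood test over all 23789 autosomal tiles tested. At 100 kb, 1 tile (0.0042% of all tested) passed an adjusted p of 0.05, and it was lower at day 9. That tile, chr17:39900001-40000000, lies in the proximal segment far from the change point, had a log2 change of -0.45 (adjusted p = 0.00476, edgeR) and averaged 3468 calls, beside a median of 323 over the 2089 kept tiles. It had between 2481 and 4172 calls in day 3 libraries and between 1922 and 2933 in day 9 libraries, and 3266 to 4691 at day 1 and 3610 to 4306 at day 11, so its level at day 11 overlapped with day 1. No tile of either distal segment passed at this size, with edgeR or with DESeq2.

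At an unadjusted p under 0.05, 3.96% of all tested tiles were higher and 2.87% lower at day 9. In the chromosome 14 distal segment 88 of 314 tiles (28.0%) were higher and 0 lower, with a median change of 0.15. In the chromosome 17 distal segment 0 of 215 were higher and 47 (21.9%) lower, with a median of -0.14. Their proximal segments were near the background, with 4.20% higher and 2.33% lower on chromosome 14 and 3.41% higher and 4.84% lower on chromosome 17. With the GC correction, the distal counts were 52 higher and 58 lower, beside 3.09% higher and 2.86% lower of all tiles.

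Larger tiles of 500 kb held more calls each. Of 4775 tested, 22 (0.461%) were higher and 21 (0.44%) lower at day 9 at an edgeR adjusted p under 0.05. The chromosome 14 distal segment held 19 of the 22 (19 of its 62 tiles, 30.6%), and the chromosome 17 distal segment 11 of the 21 (11 of its 43 tiles, 25.6%). With the GC correction, a setting added after the data were seen, 8 (0.168%) were higher, of which 7 in the chromosome 14 distal segment, and 10 (0.209%) lower, of which 9 in the chromosome 17 distal segment and the last held the called 100 kb tile named above. At this size all 62 tiles of the chromosome 14 distal segment were above 0 without the GC correction and 61 with it, and all 43 of chromosome 17 were below 0 in both.

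Each genotype by itself showed the same directions at 500 kb. At an unadjusted p under 0.05 in edgeR, 35 of 62 chromosome 14 distal tiles were higher at day 9 in control, beside 3.71% of all tiles, and 32 of 62 in Dnmt1 KO, beside 5.74%. On chromosome 17, 20 of 43 distal tiles were lower in control, beside 3.16% of all tiles, and 19 of 43 in Dnmt1 KO, beside 4.23%. The opposite direction had 0 tiles in either distal segment.

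The called 500 kb tiles of the distal segments were spread along the segments. With the GC correction those of chromosome 14 ranged from chr14:98500001-99000000 (log2 change 0.17) to chr14:124000001-124500000 (0.20). Those of the chromosome 17 distal segment ranged from chr17:74500001-75000000 (-0.20) to chr17:89000001-89500000 (-0.19), with the smallest p of the distal segment at chr17:86000001-86500000 (-0.28, edgeR adjusted p = 3.46e-06), which holds the homeobox genes Six2 and Six3.

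Among the tiles with the smallest p in this contrast were chr14:111700001-111800000 (0.43, edgeR adjusted p = 0.191), chr17:86000001-86100000 with Six2 and Six3 (-0.39, adjusted p = 0.203) and chr17:86200001-86300000 (-0.42, adjusted p = 0.105), all in distal segments. The proximal tiles chr14:51100001-51200000 with odorant receptor genes (0.58, adjusted p = 0.188) and chr14:34900001-35000000 with Anxa8 (0.39, adjusted p = 0.203) stood beside them. None of these passed the threshold.

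Between genotypes no 100 kb tile was called with edgeR (0% of 23789, with 1125 higher and 710 lower at an unadjusted p under 0.05, and 0 called with DESeq2). At p under 0.05, 10.2% of chromosome 14 distal tiles were higher and 9.30% of chromosome 17 distal tiles lower in Dnmt1 KO, beside 4.73% higher and 2.98% lower of all tiles. With the GC correction the chromosome 14 share was 3.82%, beside 3.08% of all tiles, and the chromosome 17 share 10.2%, beside 2.67%. At 500 kb, 0.921% of all tiles were higher and 0.817% lower in Dnmt1 KO at an edgeR adjusted p under 0.05, with 4 of 62 chromosome 14 distal tiles higher and 3 of 43 chromosome 17 distal tiles lower. With the GC correction these were 0 of 62, beside 0.0628%, and 1 of 43, beside 0.335%. The smallest p in the distal segments belonged to chr14:109900001-110000000 (0.35, edgeR adjusted p = 0.378) and to chr17:87200001-87300000 in Epas1, a hypoxia-inducible transcription factor (-0.30, adjusted p = 0.378). In the proximal segments chr17:20000001-20100000 (0.47) and chr17:32200001-32300000 with the receptor gene Notch3 (-0.39) had adjusted p = 0.193 each, and chr14:84000001-84100000 (0.41) and chr14:45300001-45400000 (0.37) had 0.378 and 0.389.

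Genes were examined from a list of 30 per chromosome of developmental, pluripotency, imprinted, chromatin and large neural genes, of which 57 of 60 averaged at least 50 calls. The others, Mir17hg, Sox8 and Pou5f1, were not compared. In the chromosome 14 distal segment 12 of 12 genes were above 0 in the mean of both genotypes (median change from day 1 to day 11 of 0.21), with 11 in control and 10 in Dnmt1 KO, and in the chromosome 17 distal segment 7 of 8 were below 0 (median -0.32). In the proximal segments 8 of 16 and 11 of 20 were above 0, with medians of 0.002 and 0.007. These values repeat the contrast of the choice at gene scale, with no test.

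Large genes carried most of the calls. Gpc5 and Gpc6, heparan sulphate proteoglycans of the cell surface, were at 0.26 and 0.19 with means of 3741 and 4667 calls. Dock9, an activator of the GTPase CDC42, and Farp1, a synaptic exchange factor, were at 0.29 and 0.22. Dach1, a developmental transcription cofactor, was at 0.23, Lmo7 at 0.09, and Pcdh9, across the change point, at 0.07. Gpc5, relative to its mean over the 4 day 1 libraries, was at 1.11 and 1.08 in control at day 3, 1.05 at day 6, 1.14 and 1.15 at day 9 and 1.23 and 1.22 at day 11, and at 1.03 and 1.07, 1.13, 1.13 and 1.11, and 1.15 and 1.19 in Dnmt1 KO, above the 4 day 1 libraries (0.977 to 1.04) in all but 1 library.

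In the chromosome 17 distal segment, Prkce, a protein kinase C, was at a change of -0.32, Birc6, an inhibitor of apoptosis, at -0.37 and Sos1, an activator of RAS, at -0.33. Prkce, relative to its mean over the 4 day 1 libraries, stood at 0.975 and 0.962 in control at day 3, 0.962 at day 6, 0.895 and 0.872 at day 9 and 0.777 and 0.774 at day 11, and at 0.922 and 0.980, 0.929, 0.885 and 0.885, and 0.802 and 0.851 in Dnmt1 KO. All libraries from day 6 on were below the 4 day 1 libraries, 0.968 to 1.03, while 2 of the 4 libraries of day 3 lay within their range. The exception was Six2, a homeobox gene of the kidney, at 0.10 in the mean of both genotypes with only 57.4 calls on average (0.49 in control and -0.30 in Dnmt1 KO, so in control only), while its neighbour Six3, a homeobox gene of the forebrain, was at -0.31.

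Large genes of the proximal segments lay on both sides of 0. Samd4, which encodes an RNA-binding protein, was at -0.12 and Thrb, a thyroid hormone receptor, at -0.08, about as far from 0 as Lmo7. Alk, a receptor tyrosine kinase that ends at chr17:72953049, was at 0.07, and Ptprm, a receptor phosphatase, at 0.01. Diap3, a formin on chromosome 14, was at 0.02 and Fhit, a large gene near the start of that chromosome, at 0.06. Some shorter genes had the highest or lowest value of their segment, with 0.83 in Otx2 (105 calls on average), -0.51 in Mmp14 (85.8), 0.78 in Zic5 (117), 0.31 in Dazl (54.1) and -0.30 in Notch3 (294.5).

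**Figure D4:**
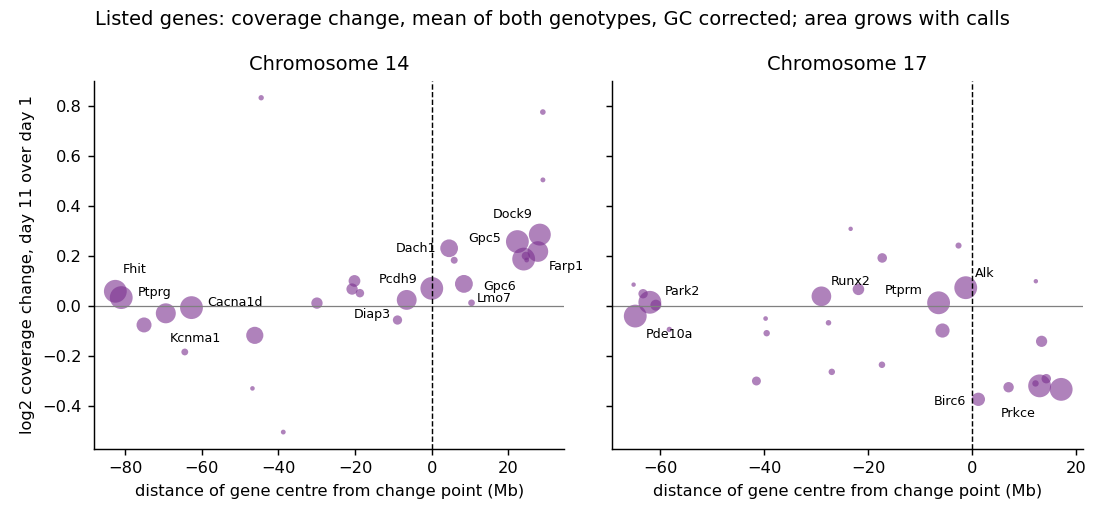
Log2 coverage change from day 1 to day 11 of the 57 listed genes (y axis, mean of both genotypes, GC corrected) against the distance of the gene's centre from the change point in Mb (x axis, dashed line at 0), with point area growing with the number of calls. Labelled genes lie between -0.04 and 0.07 before the change points. Beyond them they lie between 0.07 (Pcdh9, which spans the change point) and 0.29 on chromosome 14 and between -0.37 and -0.32 on chromosome 17. All compared genes of the proximal segments, labelled or not, lie between -0.51 and 0.83 on chromosome 14 and between -0.30 and 0.31 on chromosome 17.

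The distal segments were poorer in genes and GC than the rest of their chromosomes. The chromosome 14 distal segment holds 80 protein-coding genes, or 2.55 per Mb of sequenced bases, beside 9.67 per Mb before the change point, and it has 39.0% GC and 7.24 CpGs per kb beside 41.9% and 7.92. The chromosome 17 distal segment holds 103 genes, or 4.81 per Mb beside 14, with 41.2% GC and 8.56 CpGs per kb beside 43.1% and 9.55. The other autosomes had 41.9% GC and 8.52 CpGs per kb. A relation of gene density or base composition to the shift was not tested.

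At day 1, methylation of the distal segments in Dnmt1 KO was already below control with no overlap, and from day 3 it was far below it, as over the other autosomes. The chromosome 14 distal segment had 80.4% and 77.7% methylated calls in control at day 1 and 74.9% and 74.6% at day 11. In Dnmt1 KO it had 72% and 72.5% at day 1, 32.7% and 33.9% at day 3, 22.8% at day 6, 22.8% and 23.0% at day 9 and 22.5% and 23.1% at day 11. The chromosome 17 distal segment went from 78.0% and 76.3% to 71.9% and 72% in control and from 71.7% and 71.3% to 25.8% and 26.9% in Dnmt1 KO, with 34.9% and 36.6% at day 3. Nearly all the loss was thus present by day 6. Distal coverage in Dnmt1 KO overlapped between days 9 and 11 on both chromosomes.

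Relative to the other autosomes in the same library, the chromosome 14 distal segment was more methylated in all control libraries and, in Dnmt1 KO, at days 1 and 3 only (by 2.50 and 2.72 points at day 1 and by 0.0827 and 0.0784 at day 3). Averaged over days 3, 6 and 9, it was 2.79 percentage points above them in control and 0.55 below them in Dnmt1 KO, a difference of -3.35 points with exact permutation p = 0.0278 and adjusted p = 0.0444. The chromosome 17 distal segment was 1.52 points above them in control and 2.69 in Dnmt1 KO, a difference of 1.17 (exact permutation p = 0.0278, adjusted p = 0.0444). These are points at unlike levels, since the other autosomes stood at 75.2% in control and 33.2% in Dnmt1 KO at day 3 (group means). Without either day 6 library both differences had p = 0.0556, the smallest that exact permutation then allows. With replicate numbers taken as blocks, both had exact permutation p = 0.0625, the smallest then possible, and missed the threshold. Without control day 3 replicate 2 or Dnmt1 KO day 3 replicate 1 both had adjusted p = 0.0556 in the exact permutation test and missed the threshold. The slopes on day, -0.125 and 0.0451 points per day, had adjusted p = 0.077 and 0.182 in the exact permutation test. With 1 library left out they ranged from -0.163 to -0.0794 and from 0.0230 to 0.0679, and the chromosome 14 slope passed at -0.163 without control day 9 replicate 1 (exact permutation, adjusted p = 0.0222) and was lowest in size without control day 9 replicate 2.

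Both differences were smaller against tiles of like base composition. Against other-autosome tiles of like GC content and CpG density, chromosome 14 distal methylation was 1.65 points higher in control and 1.23 in Dnmt1 KO over days 3, 6 and 9, a difference of -0.42 (-0.609 to -0.231 with 1 library left out) with exact permutation p = 0.0556. For chromosome 17 the values were 2.25 and 2.96, a difference of 0.71 (0.629 to 0.893 with 1 library left out) with exact permutation p = 0.0278, the smallest this test can give. Adjusted over the 4 exact permutation tests of this kind, both had p = 0.111. With slopes that did not pass, even the smallest p for both differences would have missed the adjusted threshold. The adjusted miss thus says nothing of the stability of the chromosome 17 difference. The chromosome 14 difference did not reach the smallest p before adjustment either. Both segments were above like tiles in all 18 libraries, by 0.745 to 2.61 points on chromosome 14 and by 1.70 to 3.22 on chromosome 17.

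**Figure D5:**
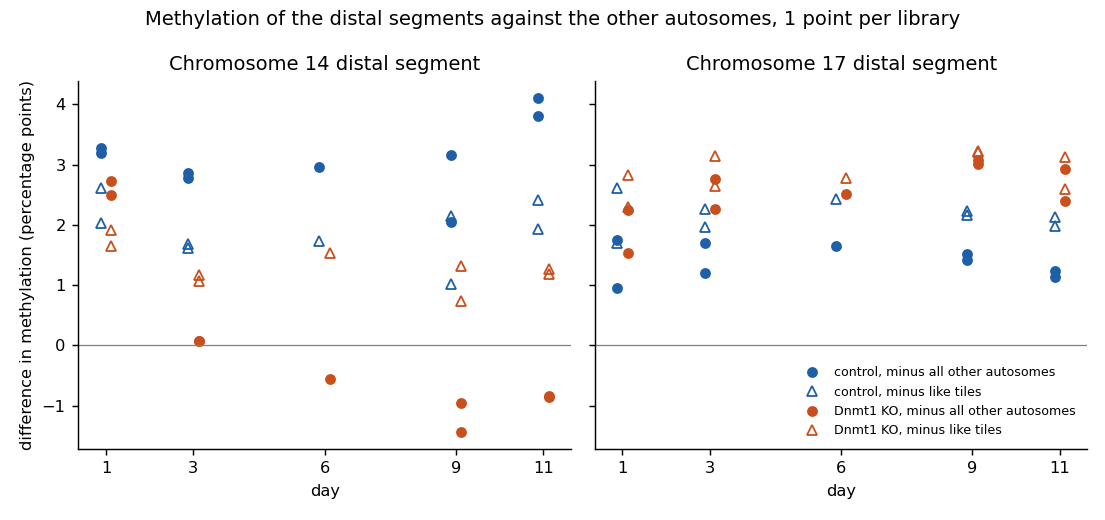
Methylated percent of each distal segment minus that of all other autosomes (filled circles) and minus that of tiles of like GC content and CpG density (open triangles), in percentage points (y axis) by day (x axis), 1 mark per library, control in blue and Dnmt1 KO in orange. On chromosome 14 the circles of Dnmt1 KO go from above 2 at day 1 to below 0, while the triangles stay above 0 in both panels.

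By sides, all genotype differences in relative methylation passed in days 3, 6 and 9 (exact permutation, adjusted p = 0.0494 each). They are in points, while at day 3 the other autosomes stood at 75.2% in control and 33.2% in Dnmt1 KO (group means). A side at a fixed ratio to them would therefore also differ between genotypes. It would keep its sign and be nearer to them in Dnmt1 KO. Over days 3, 6 and 9, chromosome 14 was at 0.38 (first side) and 1.88 points (second side) in control, and at -0.02 and -0.28 in Dnmt1 KO. Chromosome 17 was at -5.01 and 1.11 points in control, and at -2.06 and 1.95 in Dnmt1 KO. The second side of chromosome 14 differed by -2.16 points and its first side by -0.41 (0.775 with CpG-dense tiles left out, so that its direction turned), and on chromosome 17 the second side differed by 0.84 and the first side by 2.95. Of the 4 differences in points, the one farthest from 0 was thus in the first side of chromosome 17, whose coverage slope did not pass. At day 3 that side had 70.2% of calls methylated in control and 30.6% in Dnmt1 KO (group means). Its difference to the other autosomes also rose with day, by 0.0996 points per day (0.0382 in control and 0.161 in Dnmt1 KO). That of the second side of chromosome 14 fell by 0.101 per day (-0.0537 in control and -0.148 in Dnmt1 KO). These slopes had adjusted p = 0.0494 and 0.0498 in the exact permutation test. The first side of chromosome 17 holds the tile chr17:39900001-40000000, which averaged 3468 calls, beside a median of 323 over the kept tiles. At day 1, 7.92% of its calls were methylated in control and 8.21% in Dnmt1 KO. Calls were summed, so this tile weighs on that side, by an amount that was not tested. As a mean over tiles, the genotype difference and slope of that side were smaller and missed the threshold. Each genotype difference missed the threshold in exact permutation without any 1 of 7 of the 10 libraries.

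Among genes, residual methylation at day 11 in Dnmt1 KO varied within each segment. It was 13.2% in Pcdh9, 14.6% in Dach1 and 17.6% in Gpc5, but 33.6% in Gpc6, 34.4% in Lmo7, 32.4% in Farp1 and 32.4% in Dock9, from 69.9% to 77.3% at day 1. On chromosome 17 it was 39.2% in Prkce, and the 8 compared genes of the distal segment ran from 1% to 39.2% with a median of 28.0%. The coverage changes of Gpc5 and Dock9 were 0.26 and 0.29, and a relation of coverage change to residual methylation was not tested. By tile, median methylation at day 11 in Dnmt1 KO was 18.5% in the chromosome 14 distal segment, 22.3% before it, 23.3% in the chromosome 17 distal segment and 21.6% before it.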

How the data were processed

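Per the methods, the authors trimmed paired reads (Trim Galore), aligned them to mouse NCBIM37 with Bismark (version 0.12.3 in the submitters' processing notes), removed duplicates and extracted CpG calls. The deposited tables give counts of methylated and unmethylated calls per cytosine and their percent, without normalization; only the counts were used. Calls outside a CpG of NCBIM37 (at most 0.120% of cytosines per library) and cytosines with over 20 calls in any library were left out, which removed up to 0.0223% of calls on chromosome 14 and between 2.56% and 5.35% on chromosome 17. Calls were summed per 100 kb tile, per side of each chromosome's midpoint and per segment. Relative coverage is calls per CpG divided by that of the autosomes other than 14 and 17. The GC correction divides by the coverage of other-autosome tiles in 40 groups of GC content, where the mean over libraries is 1. Tiles needed 50% sequenced bases and a mean of 50 calls.

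The members, lists and tests were chosen with earlier results of these data known. Tiles were named by a fixed rule: the highest and lowest change of each side, the tiles next to each change point and the 3 smallest p per chromosome and contrast; genes came from a fixed list, by name where in such a tile or highest or lowest, and the larger genes and those next to the change points were named after their values were seen. Sides and segments were tested with exact permutation tests, 1 value per library, and tiles with edgeR 4.0.16 (R 4.3.3; DESeq2 1.42.0 as an alternative), with one level per genotype and day, so that lone day 6 libraries were assumed to vary like the others. Adjusted p-values are Benjamini-Hochberg. The tests were tried on simulated data. Same-numbered replicates of the genotypes did not deviate together (correlations of -0.0044 to 0.0046), so numbers were not taken as pairs. Other scaling, filters, tile sizes and left-out libraries were tried. The distal segments, 500 kb tiles with GC offset and comparison with like tiles were added after the data were seen. Gene models were GENCODE vM1 of the same build. Some listed genes are counted but not reported here by name.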

Additional observations from a re-analysis of the deposited data

Results flagged for a closer look

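Relative to the other autosomes, methylation moved in opposite directions from day 1 to day 11 in the control and Dnmt1 KO libraries of some regions. In the second side of chromosome 14 it changed by 0.33 percentage points in control and by -2.28 in Dnmt1 KO, and in its distal segment by 0.72 and -3.46. In the first side of chromosome 17 it changed by -1.53 points in control and by 2.34 in Dnmt1 KO, and in its proximal segment by -0.84 and 1.71. These are points, while the other autosomes went from 75.8% to 70.8% in control and from 69.6% to 23.7% in Dnmt1 KO (group means). A region at a fixed ratio to them would thus also change in points, but would keep its sign and come nearer to them. In group means the chromosome 14 distal segment went from 3.23 to 3.96 points in control and from 2.61 to -0.84 in Dnmt1 KO. The first side of chromosome 17 went from -4.64 to -6.17 points in control and from -4.45 to -2.11 in Dnmt1 KO. In percent of calls it went from 71.2% to 64.6% in control and from 65.2% to 21.6% in Dnmt1 KO. Ratios were not tested. Against tiles of like GC content and CpG density, the difference of the chromosome 14 distal segment did not go opposite ways: it was 2.04 and 2.61 points at day 1 and 2.40 and 1.93 at day 11 in control, and 1.66 and 1.91 against 1.18 and 1.27 in Dnmt1 KO. For the chromosome 17 proximal segment it was -1.30 and -1.14 against -1.52 and -1.74 in control, and -0.937 and -1.22 against -0.896 and -0.845 in Dnmt1 KO. There it fell in control and rose in Dnmt1 KO, so the directions stayed opposite. Relative to all other autosomes, in each case every day 11 library of a genotype lay on the same side of both day 1 libraries, and the difference between genotypes in this contrast was not tested, since it chose the regions. These sides and segments overlap and are not independent of each other. The first side and the proximal segment of chromosome 17 both hold the tile chr17:39900001-40000000, with 3468 calls on average and few of them methylated. Groups had 2 libraries, too few to look for outlying libraries.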

How the results depend on the processing

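Of 214 values under other settings, 137 kept their direction and their side of the threshold or moved within the replicate spread, and of 320 values with 1 library left out, 225 did. The cause of the changes below was not tested. Values are the genotype difference or the change per day over days 3, 6 and 9 unless stated, on the log2 scale for coverage and in percentage points for methylation.

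Same-numbered replicates did not deviate together (correlations of -0.0044 to 0.0046), which cannot exclude a batch shared by number. With the replicate block, the smallest exact permutation p is 0.0625 by genotype, so that those tests could not pass, and 0.0139 by day before adjustment. Exact permutation tests of the sides then had adjusted p between 0.111 and 0.141 where they had passed before. No call passed, at the same values. On chromosome 14 these were -0.406 for first side methylation and 0.0395 and 0.0121 for second side coverage by genotype and by day. Second side methylation there was at -2.16 and -0.101. On chromosome 17 they were -0.0185 for first side coverage, 2.95 and 0.0996 for its methylation, -0.0099 for second side coverage by day and 0.839 for its methylation by genotype. With the replicate block and the GC correction, second side coverage of chromosome 14 was 0.0189 by genotype and 0.00933 by day, first side coverage of chromosome 17 turned to 0.000516 and its second side was -0.0102 by day. With the GC correction alone, the genotype differences 0.0189 and 0.000516 missed the threshold, the latter with its sign turned.

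With all cytosines kept, the second sides had -0.115 for methylation by day on chromosome 14 (no longer passing) and, on chromosome 17, -0.0201 for coverage by genotype (now passing), 0.362 for methylation by genotype (no longer passing) and -0.00479 by day (sign turned). With CpG-dense tiles left out, first side methylation of chromosome 14 turned to 0.775 by genotype and 0.0406 by day, its second side had -0.0669 by day (no longer passing), and second side methylation of chromosome 17 turned to -0.0097 by day. As a mean over tiles, first side methylation of chromosome 14 turned to 0.121 and 0.0177 and second side methylation of chromosome 17 by day to -0.00467, and 5 others missed the threshold, at -2.04 and -0.101 for the second side of chromosome 14 and at 2.21, 0.0732 and 0.685 for the first side, by genotype and by day, and the second side of chromosome 17. With the distal segment in place of the side, a setting added after the data were seen, coverage by genotype was 0.0278 (no longer passing) on chromosome 14 and -0.0540 (now passing) on chromosome 17, and methylation by day was -0.125 (no longer passing) on chromosome 14.

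From day 1 to day 11, first side coverage of chromosome 14, 0.005, turned to -0.000763 with a reference without chromosome 8 and to -0.0109 with all cytosines kept. With all cytosines kept, methylation moved to -0.383 and -1.38 on the sides of chromosome 14 and to 1.54 and 0.00365 on those of chromosome 17, and second side coverage of chromosome 17 to -0.138. As a mean over tiles, methylation was 0.45 and -1.25 on chromosome 14 and 0.183 on the first side of chromosome 17. The place of the shift on chromosome 14, 88.3 Mb without GC correction, was 93.8 Mb with it, 93.8 and 94 Mb with tiles of 50 and 500 kb and 93.7 Mb with tiles of 10 and 20 kb, sizes tried with GC correction after the data were seen.

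Counts of called tiles moved with tile size. Between genotypes, 0 became 83 over all autosomes (9 on chromosomes 14 and 17) with 500 kb tiles and 19 (2) with their GC offset. Between days 9 and 3, 1 (1) became 0 (0) with no filter, 5 with the replicate block, 4 with DESeq2, 43 (31) with 500 kb tiles and 18 (17) with their GC offset. In control, 0 (0) became 2 (1) with the GC offset and with the block and GC offset, 2 (2) at 500 kb and 3 (3) with its GC offset. In Dnmt1 KO, 1 (0) became 0 with the GC offset and with DESeq2, 2 (1) with the block and GC offset, 1 on both chromosomes at 500 kb and 2 (2) with its GC offset.

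Without each library in turn, genotype differences ranged from -0.449 to -0.362 (first side) and -2.31 to -2.01 (second side) for chromosome 14 methylation, 0.0327 to 0.0458 for its second side coverage, -0.0262 to -0.0135 for first side coverage of chromosome 17, and 2.81 to 3.02 and 0.754 to 0.924 for its methylation. Each missed the threshold without any control library, Dnmt1 KO day 6 replicate 1 or Dnmt1 KO day 9 replicate 2. Coverage by day ranged from 0.0105 to 0.0134 on the second side of chromosome 14 and from -0.0105 to -0.0091 on that of chromosome 17, and missed it without either day 6 library. Methylation by day ranged from -0.133 to -0.0658 on the second side of chromosome 14 and from 0.0788 to 0.115 on the first side of chromosome 17, and missed it without 8 and 6 libraries. Slopes near 0 turned sign, from -0.000799 to 0.000213 for coverage and -0.0147 to 0.00517 for methylation of the first side of chromosome 14, and from -0.00843 to 0.0303 for methylation of the second side of chromosome 17. The place on chromosome 14 without GC correction ranged from 80.4 to 93.8 Mb, with 80.4 Mb without control day 1 replicate 1. Called tiles ranged from 0 to 11 (0 to 2) between genotypes, with 11 without Dnmt1 KO day 9 replicate 1, from 0 to 6 (0 to 2) between days, with 6 without the same library, and from 0 to 1 (0 to 1) in control and 0 to 1 (0 to 0) in Dnmt1 KO. With 2 libraries a group and 1 at day 6, the number of arrangements limits the p that these tests can give.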

Other observations

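The tile chr17:39900001-40000000, the only 100 kb tile called between days 3 and 9 with edgeR, also stood apart in methylation. Of its calls, 7.92% were methylated in control at day 1 and 7.81% at day 11, and 8.21% and 2.54% in Dnmt1 KO. The proximal tiles of chromosome 17 had a median of 79.8% in control and 72.5% in Dnmt1 KO at day 1. No protein-coding gene lies in it.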
